A study of Homo sapiens with 12 samples.

Results

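Human chromosome 13 carries its genes on the long arm, 13q. The 140 genes described here are the expressed protein-coding genes of one stretch of it, of 38611 genes in all. A gene was taken if it was annotated as protein-coding, started between 19.6 and 97.5 Mb, and had a mean FPKM of at least 1 over the 12 libraries. FPKM is a count of fragments scaled to transcript length and library size. Of 566 genes in the interval, 215 were protein-coding; 74 of these were under the minimum, and ABCC4 was left out by the rule. Just outside the minimum were FOXO1 and RGCC, both with a mean FPKM of 0.993, and just inside were GJB2 with 1.01 and ALG5 with 1.05. The members were ordered by start and divided at 52 Mb, which placed 102 genes on the centromeric side ("below") and 38 on the telomeric side ("above"). The interval and the point of division were proposed with results of these data known, so differences between the sides are described without a test.

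The libraries came from DU145 and PC3, lines grown from metastases of prostate cancer. Each was sequenced as parental cells (labelled control) and as a docetaxel-resistant subline, with 3 libraries in each of the 4 groups. Docetaxel, a taxane, binds and stabilises microtubules, which blocks cell division. The sublines were selected by raising the dose in steps, from 10 (DU145) or 0.5 (PC3) up to an IC50, the concentration of half-maximal inhibition, of 1800 or 15, in nm/ml as the submitters write the unit. All 4 groups were grown in the same serum-supplemented medium, and the sources do not state whether docetaxel was present at harvest or how many clones a subline holds. The labels do not say that the 3 libraries of a group are separate cultures. The p-values therefore reflect the spread between these libraries only, and that spread may be technical.

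The libraries held 62513103 to 72530254 counts and detected 25695 to 26401 genes. Epithelial markers KRT8, KRT18 and KRT19 were present in all groups (mean FPKM 9.33 to 239), and CTNNA1, which PC3 is known to lack, was at 60.4 in parental DU145 and 0.328 in parental PC3. The leukocyte genes PTPRC and CD3E and the endothelial genes CDH5 and VWF were at or near 0, with group means of at most 0.0252. The endothelial gene PECAM1 was at 0.0310 and 0.0425 in parental and resistant DU145 but at 2.35 and 3.42 in PC3, while CD68 (8.11 to 35.3) was detected in all groups and COL1A1 reached 11.4 in parental PC3. The mitochondrial share of counts ranged from 3.46% to 7.14% over the libraries and was highest in resistant DU145. The part of these genes and of this share in the results below was not tested.

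Neighbouring genes of a chromosome arm share their DNA dosage, their replication timing and often a chromatin domain, and long stretches of an arm can differ together in expression between cell populations. The 13q arm is known in cancer for the tumour suppressor RB1, the repair gene BRCA2 and the microRNA cluster within DLEU2, and in prostate tumours it is often lost in part. It also holds genes of the mitotic spindle, the structure that taxanes act on, among them SKA3 below the point of division and BORA, MZT1, CKAP2 and DIAPH3 above it.

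For 120 members (86 below and 34 above) RefSeq gave a promoter sequence on GRCh38.p14. In the 250 bases before the start, the median GC content was 66.2% below and 62.2% above, against 58.0% over all 35116 promoters in the table. GC boxes (GGGCGG on either strand) were present in 58.1% of promoters below and 61.8% above, against 42.6% of all promoters, and CCAAT on either strand in 26.7%, 44.1% and 32.0%. A TATAAA on either strand was found in 6.98% below, 11.8% above and 10.7% of all. The motif TTTCGCGC, one form of the E2F site, was found in 1 of 86, 1 of 34 and 154 of 35116 promoters (1.16%, 2.94% and 0.439%), too few for a comparison. The 35116 promoters were not limited to expressed genes, so the shares of members were not set against those of other expressed genes. Members were represented by a single promoter per gene, whereas the 35116 were not reduced in this way. For 51 of the 120 members the RefSeq start equalled the deposited gene start. None of these motifs contains another, and a match describes letters only. The 200 bases before the start are printed for 4 members, with GC boxes and CCAAT in capitals: the closest member on each side whose RefSeq start equals the gene start in the files (KPNA3 below, ALG11 above), and MZT1 and PIBF1, which each share a divergent promoter with another member and changed in opposite directions in the 2 lines. They lie at chr13:49792683-49792882 (minus strand), chr13:52012198-52012397 (plus strand), chr13:72727630-72727829 (minus strand) and chr13:72781933-72782132 (plus strand).
KPNA3: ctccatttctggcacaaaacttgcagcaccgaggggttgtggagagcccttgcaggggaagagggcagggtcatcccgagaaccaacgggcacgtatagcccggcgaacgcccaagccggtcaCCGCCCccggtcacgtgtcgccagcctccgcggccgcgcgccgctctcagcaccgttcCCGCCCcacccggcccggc
ALG11: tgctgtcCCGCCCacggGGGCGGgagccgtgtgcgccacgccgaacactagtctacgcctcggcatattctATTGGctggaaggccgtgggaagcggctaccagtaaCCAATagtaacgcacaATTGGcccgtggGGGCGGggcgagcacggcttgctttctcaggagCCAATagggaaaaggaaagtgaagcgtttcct
MZT1: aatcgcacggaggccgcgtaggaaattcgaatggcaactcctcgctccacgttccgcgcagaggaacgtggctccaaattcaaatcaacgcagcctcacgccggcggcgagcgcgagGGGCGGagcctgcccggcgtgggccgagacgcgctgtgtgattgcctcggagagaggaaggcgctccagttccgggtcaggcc
PIBF1: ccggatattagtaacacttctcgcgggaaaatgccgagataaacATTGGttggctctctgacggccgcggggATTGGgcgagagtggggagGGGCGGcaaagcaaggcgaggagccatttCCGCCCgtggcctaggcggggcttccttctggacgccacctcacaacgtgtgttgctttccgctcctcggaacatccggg
The KPNA3 and ALG11 sequences both hold GC boxes, and their genes moved in opposite directions in DU145 (below).

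Resistant DU145 cells had more RNA than parental DU145 cells from nearly all members below 52 Mb and less from most members above it. Below, 88 of 102 members rose, 3 fell and 11 did not pass the test, with a median log2 difference of 0.81 (interquartile range 0.62 to 1.22), which corresponds to 1.76-fold. Above, 28 of 38 fell, 4 rose and 6 did not pass, with a median of -0.83 (-1.12 to -0.47), or 1.78-fold lower. The threshold for a call was an adjusted p under 0.05 in edgeR's quasi-likelihood F test with Benjamini-Hochberg adjustment over 24128 genes. Of all genes tested, 39.6% were called in this comparison, 18.9% higher and 20.7% lower. The 3 parental and 3 resistant libraries did not overlap in CPM (counts scaled to the library total) for 93 of 102 members below and 34 of 38 above, against 51.2% of all genes tested and 71.6% of expressed protein-coding genes of other chromosomes. In bulk RNA, fewer cells that express a gene and less RNA per cell cannot be told apart.

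Expressed protein-coding genes of other chromosomes moved little on balance. The 11135 tested on other chromosomes had a median of -0.05, with 3192 higher (28.7%) and 3940 lower (35.4%). The 43 such genes on chromosome 13 beyond 97.5 Mb had a median of -0.14, with 11 higher (25.6%) and 21 lower (48.8%). More of them fell than rose, as among the members above.

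**Figure D1:**
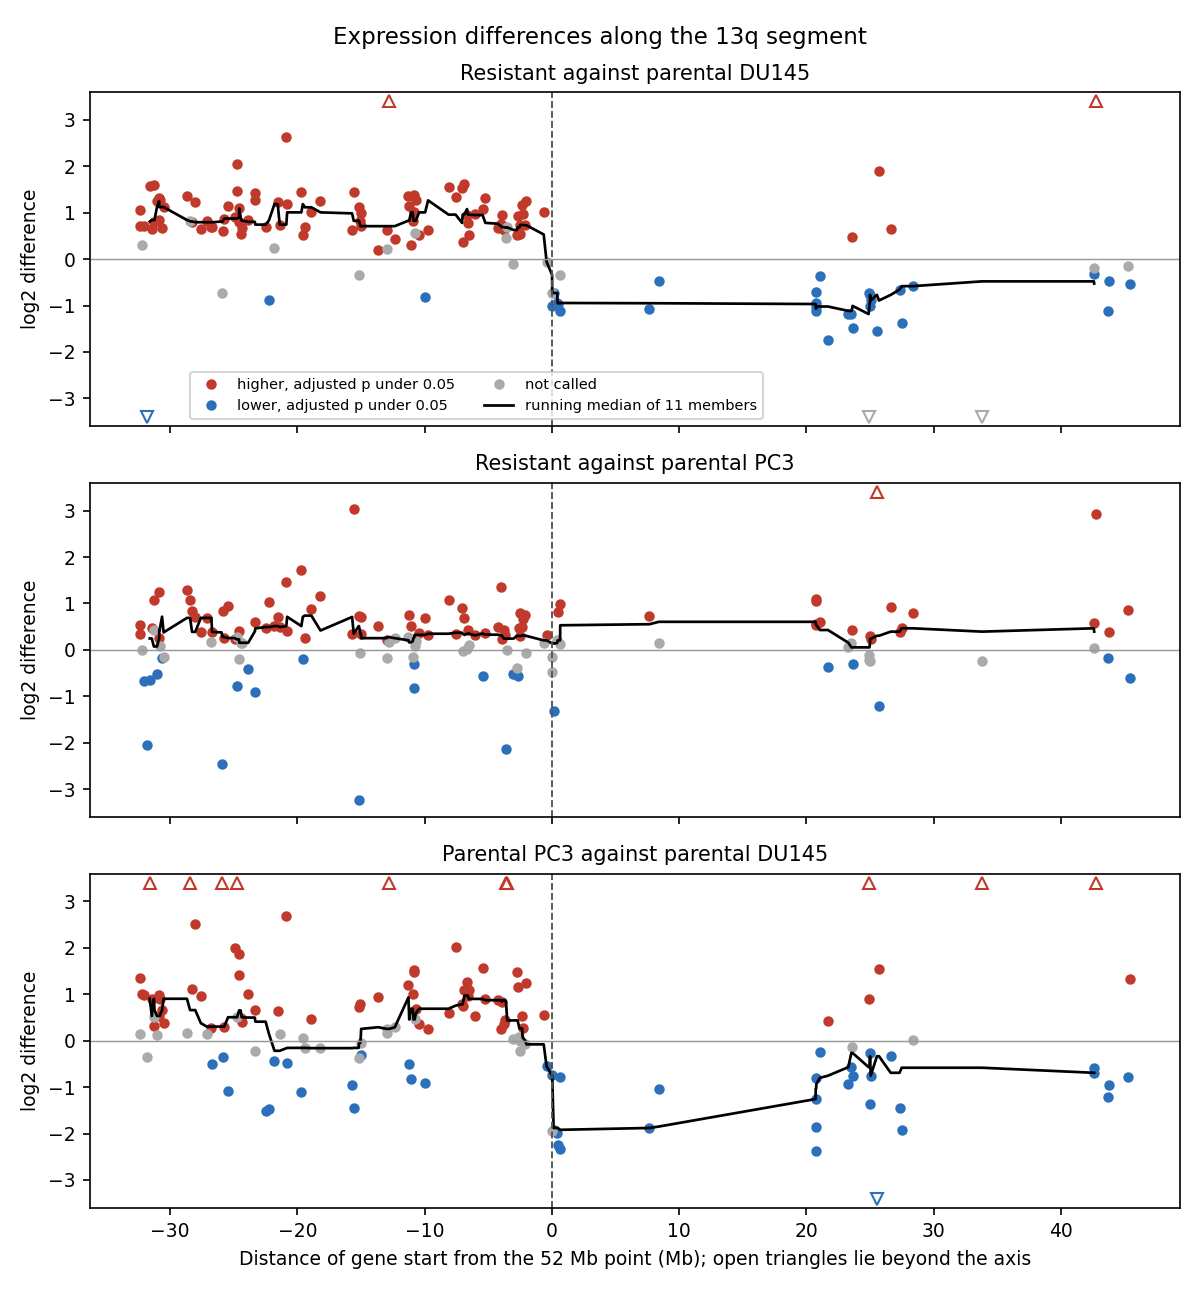
Log2 difference of each of the 140 members (points) against the distance of its start from the 52 Mb point in Mb, for resistant against parental DU145 (top), resistant against parental PC3 (middle) and parental PC3 against parental DU145 (bottom). Red points were called higher and blue points lower at an adjusted p under 0.05, grey points were not called, open triangles lie beyond the axis and the line is the running median of 11 members. In DU145 the line lies above 0 to the left of the dashed line except right beside it, and below 0 to its right. In PC3 the running median stays above 0 along its whole length.

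The change of sign fell within a short distance. From AKAP11 to RCBTB2, 19 consecutive members had a difference above 0 in DU145, and from WDFY2 to COMMD6, 18 consecutive members had one below 0. The member closest below the point with a called rise was INTS6, a subunit of the Integrator complex that processes small nuclear RNAs (chromosome 13, 51354077 to 51453592, overlapping the antisense gene INTS6-AS1 and SERPINE3). Its CPM was 34.7, 28.9 and 23.1 in parental and 57.3, 60.1 and 57.3 in resistant DU145. The log2 difference was 1.01 ± 0.11 (SE; adjusted p = 2.68e-06), and the groups did not overlap.

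WDFY2, an endosomal protein whose gene starts next (51584455 to 51767709), had 61.6, 52.2 and 53.0 CPM in parental and 55.6, 51.1 and 53.3 in resistant DU145. These values overlapped, and the difference was -0.06 ± 0.07 (adjusted p = 0.577). ALG11, a mannosyltransferase of N-glycan assembly at 52012398 to 52033600, had 73.6, 64.6 and 78.3 CPM in parental and 40.5, 35.2 and 31.4 in resistant DU145 (-1.02 ± 0.09, adjusted p = 2.6e-07). UTP14C lies wholly within the span of ALG11 on the same strand, so reads cannot be assigned to either with certainty.

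UTP14C scattered from 0.877 to 20.9 CPM within parental DU145 and did not pass the test. It reached the FPKM minimum through that group. VPS36, of the endosomal sorting complex ESCRT-II (52412602 to 52450622), overlaps no other gene. Its CPM was 91.2, 88.9 and 81.4 in parental and 47.7, 47.3 and 40.3 in resistant DU145 (-0.95 ± 0.09, adjusted p = 2.12e-07). NEK3, a NIMA-related kinase, fell less securely: 17.2, 16.9 and 17.5 against 10.1, 9.48 and 11.5 CPM, -0.73 ± 0.24 (adjusted p = 0.0264). Its call was lost when parental replicate 1, 2 or 3 (adjusted p = 0.0627, 0.057 and 0.0668) or resistant replicate 1 or 2 (0.0732 and 0.0849) was left out.

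**Figure D2:**
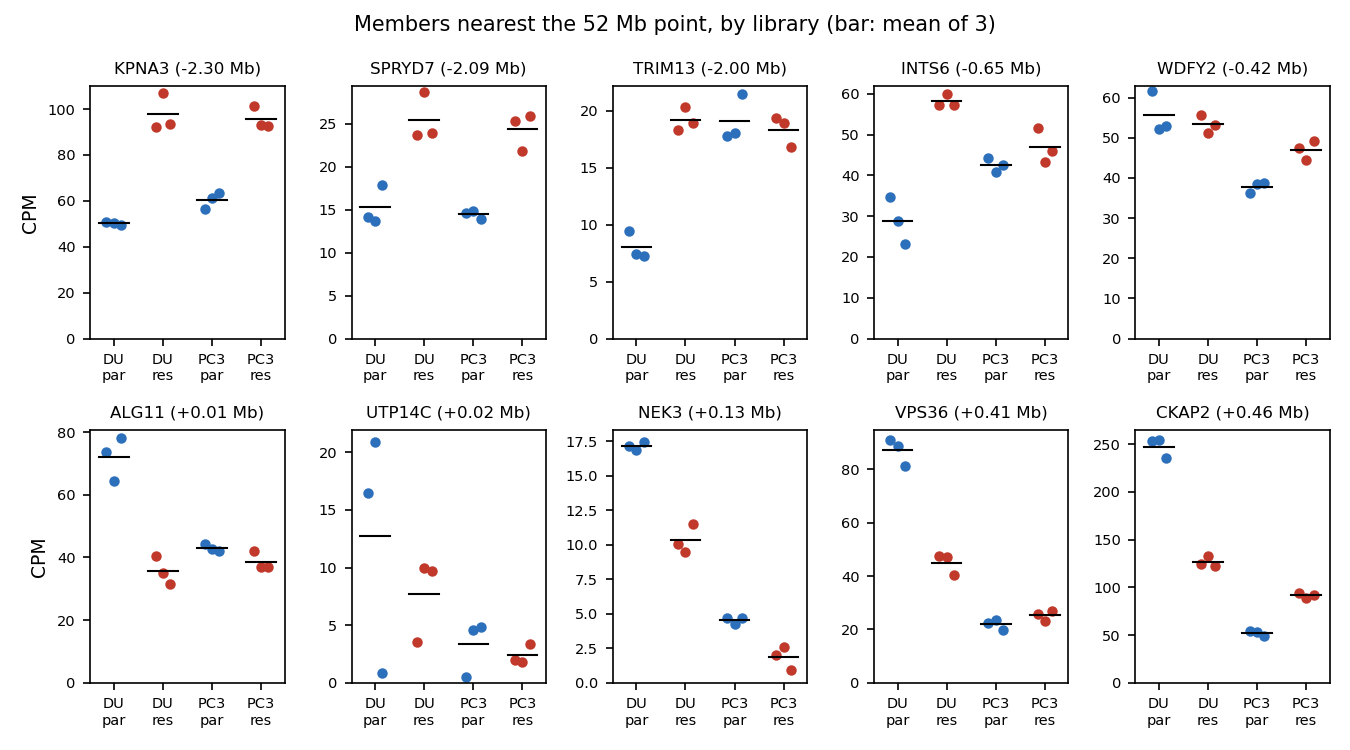
CPM in each library for the 5 members closest to the 52 Mb point on each side, with the distance of the gene start from that point in Mb; points are libraries, bars are means of 3, blue is parental and red is resistant. The top row (below the point) shows resistant DU145 above parental DU145 for all but WDFY2, and the bottom row shows the reverse for all but UTP14C, whose libraries overlap.

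Each library was also summarised by the median, over the members of a side, of log2(CPM + 0.1) minus the gene's mean over the 12 libraries. In parental DU145 this level was -0.561 ± 0.039 (SD, n = 3) below and 0.546 ± 0.035 above. Resistant DU145 gave 0.280 ± 0.035 and -0.154 ± 0.047, parental PC3 -0.016 ± 0.042 and -0.306 ± 0.043, and resistant PC3 0.299 ± 0.047 and -0.057 ± 0.022. Parental DU145 was therefore the lowest group below the point and the highest above it, and its 3 libraries overlapped no library of another group on either side. The difference between the sides was -1.107 ± 0.008 in parental DU145, against 0.434 ± 0.012, 0.290 ± 0.085 and 0.357 ± 0.059 in the other groups in the same order.

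As a share of all counts, the members below supplied 0.326% ± 0.012 in parental and 0.579% ± 0.008 in resistant DU145. The members above supplied 0.258% ± 0.006 and 0.137% ± 0.003. In PC3 the shares were 0.479% ± 0.006 and 0.590% ± 0.005 below, and 0.137% ± 0.001 and 0.156% ± 0.002 above.

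**Figure D3:**
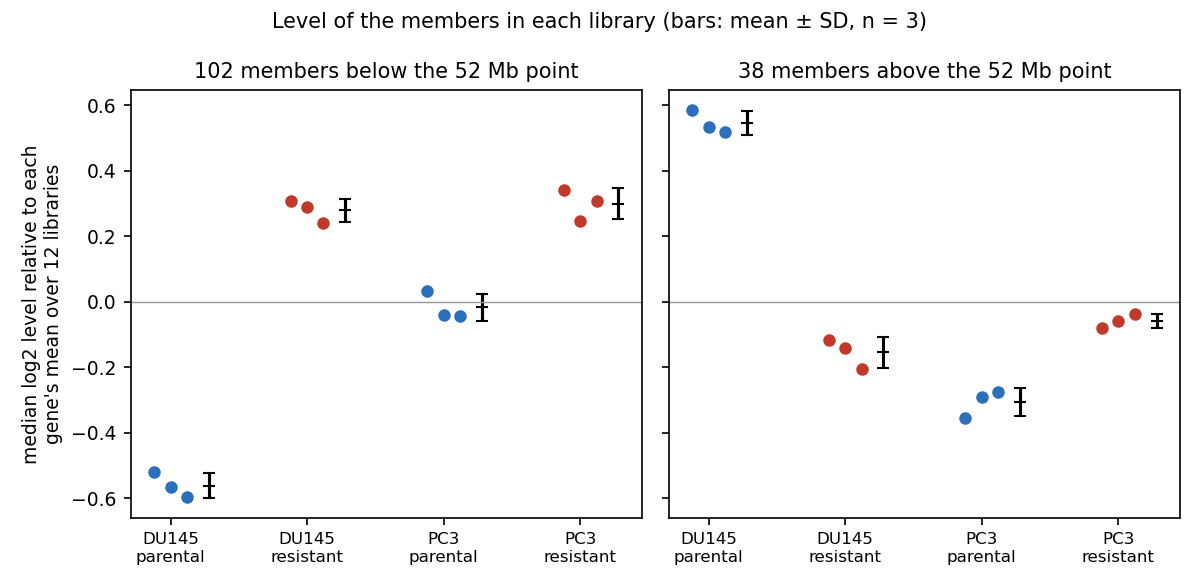
Median log2 level of the members in each of the 12 libraries, relative to each gene's mean over the libraries, for the 102 members below (left) and the 38 above (right) the 52 Mb point; bars give the mean ± SD of 3 libraries. Parental DU145 lies lowest on the left, from -0.597 to -0.519, and highest on the right, from 0.519 to 0.586.

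Parental PC3 differed from parental DU145 in the same 2 directions. Below, 64 of 102 members were higher and 15 lower (median 0.52), and above, 7 of 38 were higher and 28 lower (median -0.78). Without the PC3 libraries, 7 members below and 3 above had a mean FPKM under 1, and each of these was called higher. Without the DU145 libraries this held for 3 below and 2 above, of which only NEK3 was called (lower). The directions of such genes follow from the choice of members, so they are counted but carry no weight. In this comparison 60.3% of all genes tested were called, 30.9% higher and 29.5% lower, and of expressed protein-coding genes of other chromosomes 40.9% were higher and 41.3% lower. It shares the parental DU145 libraries with the comparison of resistant and parental DU145, so the 2 are not independent. The run of consecutive members above 0 was 23 long, from AKAP11 to SETDB2, and the run below 0 was 15 long, from WDFY2 to KLF5. Between 29.6 and 39.6 Mb the parental lines did not differ on balance (median 0.00, 7 higher and 7 lower of 22), whereas 18 of the same 22 members rose in resistant DU145.

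In PC3 the resistant cells had slightly more RNA from both sides. Below, 61 of 102 members rose and 17 fell (median 0.34), and above, 20 of 38 rose and 6 fell (median 0.27). Of all genes tested, 44.0% were called, 22.4% higher and 21.6% lower. Of the 11135 expressed protein-coding genes of other chromosomes, which are the closer match to the members, 37.8% rose and 31.9% fell (median 0.05). Of the 43 on chromosome 13 beyond 97.5 Mb, 20 rose and 10 fell (median 0.16). Groups of 3 did not overlap for 80.4% of members below and 71.1% above, shares near the 75.8% of expressed protein-coding genes of other chromosomes, while the share over all genes tested was 54.4%.

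The test of the difference between the lines' changes (PC3 minus DU145) called 60 of 102 members lower and 8 higher below, and 28 of 38 higher and 1 lower above. Of all genes tested 42.1% were called, 22.1% higher and 20.0% lower, and of expressed protein-coding genes of other chromosomes 38.2% were higher and 28.9% lower. Below, 56 members rose in both lines and 12 rose in DU145 but fell in PC3. Above, 15 fell in DU145 and rose in PC3, 5 fell in both (NEK3, KLF12, LMO7, DNAJC3 and RAP2A) and 3 rose in both (UCHL3, OBI1 and SOX21). SOX21 reached the FPKM minimum through resistant PC3, so its call in PC3 is counted but carries no weight. UCHL3 lost its call in DU145 without parental replicate 2 or 3 or resistant replicate 1 (adjusted p = 0.095, 0.0852 and 0.0517). In PC3 it lost it without parental replicate 1 or 3 or resistant replicate 2 or 3 (0.062, 0.122, 0.0825 and 0.0986). DNAJC3 lost its call in PC3 without parental replicate 3 (0.078) or resistant replicate 1 (0.0863).

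**Figure D4:**
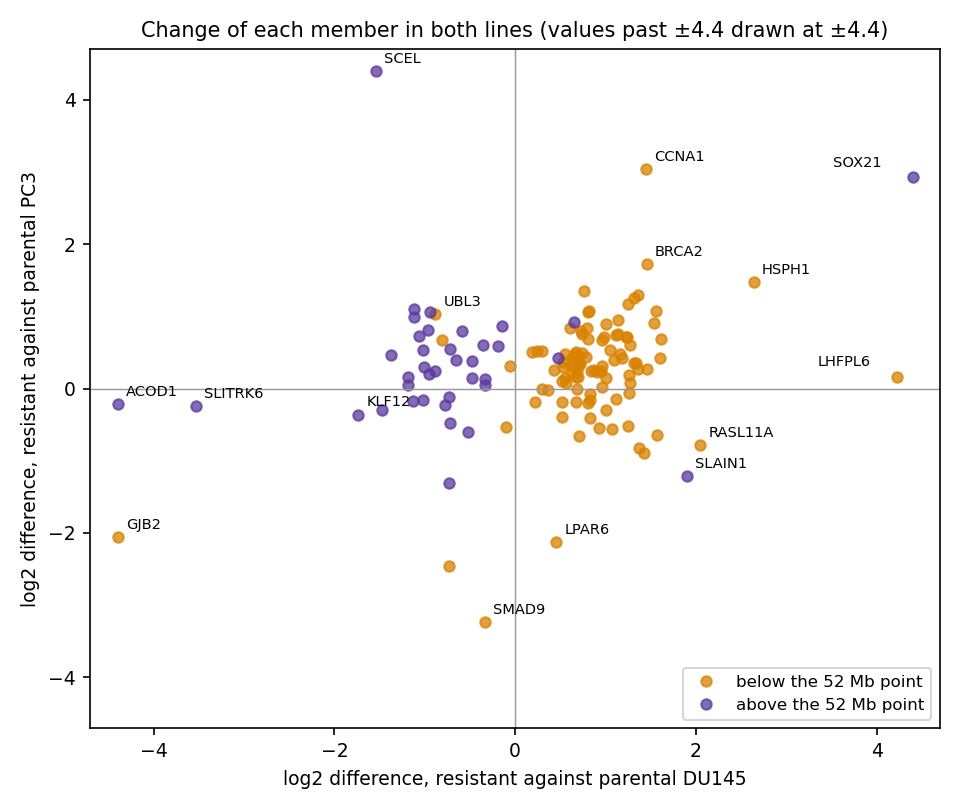
Each point is 1 member, placed by its log2 difference between resistant and parental cells in DU145 (horizontal) and in PC3 (vertical); orange is below and purple above the 52 Mb point, and values past 4.4 in size are drawn at 4.4. Most orange points lie to the right of 0 and most purple points to its left, while both colours lie mainly above 0 on the vertical axis.

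The members were also grouped by what they are known to do. The counts of each group stand beside those of the whole side: in DU145, 86.3% of all members below rose and 2.94% fell, and above 10.5% rose and 73.7% fell. In PC3, 59.8% below rose and 16.7% fell, and above 52.6% rose and 15.8% fell. No group was tested against the rest of its side, and a count near these shares is no trait of the group.

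Genes of the spindle and of mitosis lay on both sides. Of the 16 genes on a list of them, 15 were members. The 7 below included 6 that rose in DU145, and 7 of 7 rose in PC3. Of the 8 above, 7 fell and 1 rose in DU145, whereas 6 rose and 2 fell in PC3. The medians were 0.81 below and -0.99 above in DU145, and 0.69 and 0.77 in PC3, against 0.00 over all genes tested in each line.

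CKAP2, a microtubule-associated protein of the spindle, had 253, 254 and 235 CPM in parental DU145 and 124, 133 and 123 in resistant DU145. In PC3 it had 53.8, 52.8 and 49.4 in parental and 93.6, 89.2 and 91.9 in resistant cells. The groups did not overlap in either line, with differences of -0.97 ± 0.05 (adjusted p = 2.71e-10) and 0.82 ± 0.05 (1.54e-09). Parental DU145 was the highest of the 4 groups and parental PC3 the lowest.

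SUGT1, a co-chaperone needed to assemble kinetochores, showed the same order, with 125, 122 and 118, then 52.9, 57.8 and 56.4 CPM in DU145, and 24.1, 24.5 and 23.4, then 46.7, 47.1 and 48.8 in PC3. Its differences were -1.12 ± 0.05 (adjusted p = 9.62e-11) and 0.99 ± 0.05 (4.09e-10). DIAPH3, a formin that nucleates actin filaments, went from 75.9, 76.1 and 73.7 to 38.4, 37.1 and 32.4 CPM in DU145. It went from 20.9, 21.4 and 19.0 to 34.9, 34.1 and 32.4 in PC3, so that the resistant groups of the lines lay close together.

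MZT1, a small subunit of the gamma-tubulin complexes that seed microtubules, and BORA, an activator of the mitotic kinase Aurora A, start 120 bases apart on opposite strands. MZT1 had 68.5, 67.0 and 73.1 CPM in parental and 31.7, 37.4 and 33.7 in resistant DU145, then 30.8, 29.6 and 26.9 and 44.6, 41.2 and 40.4 in PC3. BORA had 29.5, 32.7 and 25.7, then 15.4, 15.7 and 14.6 in DU145, and 6.03, 6.44 and 4.54, then 12.3, 10.1 and 13.2 in PC3. All 4 differences passed the test: MZT1 -1.02 ± 0.08 and 0.53 ± 0.08, and BORA -0.94 ± 0.14 and 1.06 ± 0.15. BORA overlaps the end of DIS3 on the other strand.

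DIS3, a ribonuclease of the RNA exosome, and PIBF1, a protein of the centrosome, form the next divergent pair, with starts 208 bases apart. PIBF1 had 27.9, 22.8 and 22.5 CPM in parental and 12.4, 10.9 and 10.5 in resistant DU145 (-1.11 ± 0.13, adjusted p = 2.82e-06). In PC3 it had 6.55, 7.60 and 6.16, then 13.3, 15.5 and 14.8 (1.10 ± 0.13, adjusted p = 2.86e-06). DIS3 also fell in DU145 (-0.72 ± 0.06) and rose in PC3 (0.55 ± 0.06). The change of PIBF1 differed between the lines by 2.21 ± 0.18 (adjusted p = 5.96e-08).

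There were 8 divergent pairs below and 3 above. In DU145 both genes rose in 7 of the 8, on a side where 86.3% of all members rose. The 7 include the pair of ALG5, which reached the FPKM minimum through resistant DU145, so its rise carries no weight. Both fell in 2 of the 3, on a side where 73.7% fell. In the remaining pair above, the genes went in opposite directions. These were COMMD6 and UCHL3, which start 41 bases apart: COMMD6 fell (-1.19 ± 0.17), while UCHL3, a deubiquitinating enzyme, rose (0.47 ± 0.15, adjusted p = 0.0209). UCHL3 had 16.5, 10.97 and 11.3 CPM in parental and 18.4, 18.0 and 17.5 in resistant DU145. In PC3, both genes rose in 2 of the 8 pairs below, CAB39L fell while its partner SETDB2 rose, and in 5 pairs at least 1 gene did not pass. Both rose in 2 of the 3 pairs above.

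SLAIN1, which promotes microtubule growth at plus ends, was the spindle gene above the point that went the other way in both lines. It had 4.61, 4.28 and 5.15 CPM in parental and 16.6, 16.3 and 19.6 in resistant DU145 (1.902 ± 0.14, adjusted p = 2.22e-08). In PC3 it had 12.4, 14.4 and 14.1, then 6.30, 5.41 and 5.92 (-1.22 ± 0.14, adjusted p = 2.16e-06). It was the 1 member above whose change was called lower in PC3 than in DU145, by -3.12 ± 0.20 (adjusted p = 3.39e-09).

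Below the point, the 1 spindle gene that did not pass in DU145 was KATNAL1, a microtubule-severing enzyme subunit (0.24, adjusted p = 0.0608). SKA3, of the complex that holds kinetochores to microtubules, had 14.1, 13.4 and 12.5, then 35.2, 33.4 and 31.3 CPM in DU145, and 20.1, 19.7 and 18.1, then 45.5, 40.0 and 52.2 in PC3 (1.32 ± 0.10 and 1.25 ± 0.10). CCNA1, a cyclin best known from the germ line, rose most of the list in PC3: 1.01, 1.78 and 1.76 against 11.4, 11.9 and 14.1 CPM (3.04 ± 0.23, adjusted p = 2.19e-08). In DU145 it had 3.67, 4.99 and 3.75 against 10.7, 12.4 and 10.7 (1.44 ± 0.22, adjusted p = 4.92e-05).

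All 7 members on a list of 8 DNA replication and repair genes rose in both lines, 6 below and OBI1, a ubiquitin ligase of replication origins, above. The side of the 6 had 86.3% of members higher in DU145 and 59.8% in PC3, against 18.9% and 22.4% of all genes tested. BRCA2, which acts in the repair of broken DNA, had 24.6, 30.6 and 26.8, then 77.4, 79.8 and 67.7 CPM in DU145. The PC3 values were 11.8, 12.4 and 13.9, then 45.2, 40.2 and 40.6. Its differences were 1.46 ± 0.09 (adjusted p = 5.25e-09) and 1.72 ± 0.10 (7.18e-10), and the test of the difference between them did not pass (0.27 ± 0.13, adjusted p = 0.127).

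RFC3, of the clamp loader, rose by similar amounts, 1.25 ± 0.08 in DU145 and 1.17 ± 0.08 in PC3. The median of the 6 members below was 0.73 in DU145 and 0.82 in PC3, against 0.81 and 0.34 for all 102 members below. OBI1 had 21.4, 18.4 and 20.6, then 37.1, 29.3 and 28.2 CPM in DU145 (0.65 ± 0.12, adjusted p = 0.000373), unlike most of its neighbours above the point.

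Growth control genes below the point mostly rose in DU145, with 7 of 8 called (10 of 12 listed genes were members). In PC3, 4 of the 8 rose and 2 fell, and the medians of the 8 were 0.92 in DU145 and 0.14 in PC3. LPAR6, which fell in PC3, reached the FPKM minimum through parental PC3, so its fall is counted but carries no weight. RB1, the retinoblastoma protein that restrains entry into S phase, had 38.9, 39.1 and 34.5 CPM in parental and 63.9, 64.5 and 53.8 in resistant DU145 (0.70 ± 0.08, adjusted p = 2.09e-06). In PC3 it had 51.8, 47.3 and 53.1, then 64.6, 61.98 and 64.5 (0.33 ± 0.08, adjusted p = 0.00217). RB1 contains LPAR6 and overlaps RCBTB2 on the other strand, and the strand setting of the counting is not given in the sources used here.

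LATS2, a kinase of the Hippo pathway, moved in opposite directions: 18.8, 20.5 and 21.1, then 51.6, 49.0 and 42.9 CPM in DU145 (1.25 ± 0.09), and 22.0, 23.4 and 20.2, then 15.5, 14.5 and 15.7 in PC3 (-0.52 ± 0.09). The difference of the changes was -1.77 ± 0.13 (adjusted p = 1.71e-08). TPT1, the tumour protein TCTP, rose in DU145 from 323, 315 and 310 to 616, 584 and 641 CPM (0.96 ± 0.05), and in PC3 its groups overlapped (0.01 ± 0.05, adjusted p = 0.848).

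CDK8, the kinase of the Mediator complex, rose in DU145 (0.87 ± 0.09). Its smaller difference in PC3 (0.26 ± 0.09, adjusted p = 0.0239) lost its call without parental replicate 1 (adjusted p = 0.0799), parental replicate 2 (0.0558) or resistant replicate 3 (0.0799). Above the point, KLF5, a transcription factor of epithelial growth, and SPRY2, an inhibitor of receptor tyrosine kinase signalling, fell in DU145 (-0.36 ± 0.06 and -0.58 ± 0.09) and rose in PC3 (0.61 ± 0.06 and 0.80 ± 0.09). SPRY2 had 39.5, 46.4 and 37.7 CPM in parental DU145 and 38.7, 42.3 and 43.3 in parental PC3, so the parental lines overlapped.

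Transcription and chromatin genes lay mostly below, where 14 of 16 rose in DU145 and 2 did not pass (median 0.79). In PC3, 11 rose and 2 fell (median 0.35). Of 19 listed genes, 18 were members. HMGB1, an abundant DNA-bending protein with many processed copies that may share reads, went from 198, 211 and 188 to 481, 458 and 468 CPM in DU145 (1.23 ± 0.05) and from 308, 328 and 301 to 518, 507 and 511 in PC3 (0.71 ± 0.04). GTF3A, the factor TFIIIA of 5S RNA transcription, rose by 1.09 ± 0.08 and 0.40 ± 0.07. SMAD9, which transmits BMP signals, reached the FPKM minimum through parental DU145, so a difference from that group is given as values only. It was not called in DU145, with 9.88, 7.95 and 10.3 CPM in parental and 8.59, 6.77 and 6.89 in resistant cells. In PC3 it fell from 7.89, 6.82 and 7.05 to 0.434, 0.939 and 0.937 CPM (-3.23 ± 0.27, adjusted p = 5.76e-08).

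Above, KLF12, a transcriptional repressor, fell in both lines, from 37.7, 29.5 and 34.8 to 9.91, 10.8 and 9.85 CPM in DU145 (-1.74 ± 0.10) and from 44.6, 44.4 and 47.8 to 39.3, 34.7 and 32.4 in PC3 (-0.36 ± 0.10).

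RNA processing and translation genes (13 of 13 listed were members) rose in DU145 in 9 of 9 cases below (median 1.05), and above 2 of 4 fell (median -0.69). In PC3, 4 of 9 rose below and 1 fell (median 0.31), and 3 of 4 rose above (median 0.47). RPL21, a ribosomal protein with many processed copies, had 140, 141 and 80.2, then 335, 304 and 353 CPM in DU145 (1.46 ± 0.21), and in PC3 the groups overlapped (0.28 ± 0.21, adjusted p = 0.341). PSPC1, a paraspeckle protein near the start of the interval, rose by 1.05 ± 0.06 in DU145 and 0.54 ± 0.06 in PC3. MBNL2, a splicing regulator near its end, went from 26.4, 20.4 and 22.8 to 45.8, 41.4 and 39.6 CPM in PC3 (0.87 ± 0.09), and in DU145 did not pass the test (-0.14 ± 0.09, adjusted p = 0.264).

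Mitochondrial genes all lay below. In DU145, 9 of 10 rose (median 0.80), and in PC3, 5 of 10 rose and 5 did not pass (median 0.32). The list held 11 genes. MRPL57, a mitochondrial ribosomal protein, had 10.9, 10.5 and 10.3, then 27.4, 24.997 and 24.4 CPM in DU145 (1.27 ± 0.09, adjusted p = 1.2e-08). The PC3 values were 20.6, 20.2 and 18.7, then 21.7, 20.2 and 20.6 (0.07 ± 0.09, adjusted p = 0.554), so the lines differed by -1.20 ± 0.12 (adjusted p = 9.17e-07). MICU2, a regulator of the mitochondrial calcium uniporter, had a like difference between the lines, -1.27 ± 0.12 (adjusted p = 4.2e-07).

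Ubiquitin and proteasome genes, 13 of 13 listed, held exceptions too. Below, 7 of 8 rose in DU145 (median 0.82), among them POMP, which assembles the proteasome (35.0, 41.7 and 43.3, then 102, 96.5 and 91.5 CPM, 1.27 ± 0.08), and USP12, a deubiquitinating enzyme (0.90 ± 0.05). UBL3, a membrane-anchored ubiquitin-like protein, fell in DU145 from 72.9, 63.2 and 62.1 to 38.3, 37.8 and 31.5 CPM (-0.88 ± 0.09) and rose in PC3 from 23.7, 23.2 and 24.5 to 53.0, 47.9 and 44.7 (1.03 ± 0.09). Taken singly, each is the direction of most members above, and 15 of those 38 showed both, although UBL3 starts at 29764371. DGKH, a diacylglycerol kinase, did the same, from 90.0, 91.3 and 75.4 to 53.9, 45.96 and 46.7 CPM in DU145 (-0.81 ± 0.08) and from 44.4, 43.3 and 48.0 to 74.1, 72.4 and 70.5 in PC3 (0.68 ± 0.08). UBL3, DGKH and GJB2 were the 3 members below that fell in DU145. In PC3, 6 of the 8 rose and 2 fell (median 0.50).

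Above, 4 of 5 fell in DU145 (median -0.89), and in PC3 4 of 5 rose (median 0.31). NDFIP2, an adaptor of NEDD4-type ubiquitin ligases, had 113, 105 and 111, then 42.4, 43.7 and 41.3 CPM (-1.37 ± 0.07), and in PC3 27.1, 31.5 and 28.4, then 40.7, 41.5 and 37.8 (0.47 ± 0.07). MYCBP2, a large ubiquitin ligase, fell from 211, 197 and 175 to 104, 111 and 99.4 CPM in DU145 (-0.89 ± 0.06) and rose in PC3 (0.24 ± 0.06, adjusted p = 0.00362).

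Secretory pathway and glycosylation genes (12 of 12 listed) had counts near those of their sides in DU145. There, 6 of 6 below rose (median 0.72) and 5 of 6 above fell (median -0.86). The 6 below include ALG5, which reached the FPKM minimum through resistant DU145, so its rise is counted but carries no weight. DNAJC3, a co-chaperone of the endoplasmic reticulum, had 126, 122 and 117, then 58.2, 56.0 and 53.3 CPM (-1.12 ± 0.06). Resistant DU145 thus came near parental PC3, at 50.6, 51.9 and 54.6. In PC3, 3 of the 6 below rose and 3 did not pass, and above 2 rose and 1 fell (medians 0.30 and 0.03). The 3 nuclear transport genes (the importin KPNA3, the exportin XPO4 and the nucleoporin NUP58, all below) rose in both lines (medians 0.81 in DU145 and 0.67 in PC3). KPNA3 had 50.7, 50.2 and 49.5, then 92.4, 107 and 93.7 CPM in DU145, and 56.3, 61.2 and 63.2, then 101, 93.0 and 92.8 in PC3.

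Of 21 listed receptors, junction and other surface or secreted proteins, 6 were members. Of the 5 below, 3 rose and 1 fell in DU145 (median 0.81), and 2 rose and 2 fell in PC3 (median 0.16). These counts include GJB2, which fell in both lines and reached the FPKM minimum through the parental groups. They also include TNFRSF19, which rose in PC3 and reached it through resistant PC3. Those calls are counted but carry no weight. The 1 above, the receptor-like GPR180, fell in DU145 (-0.33 ± 0.08, adjusted p = 0.00262). Of 12 listed genes of the cytoskeleton and scaffolds, 7 were members. Of the 6 below, 5 rose in DU145 (median 1.18), and 4 rose and 2 fell in PC3 (median 0.83). The 6 include the heat shock chaperone HSPH1, which rose most of the list in both lines (2.64 and 1.47).

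Among the largest changes, HSPH1, a heat shock chaperone, had high counts: 24.7, 16.9 and 18.1, then 126, 127 and 119 CPM in DU145 (2.64 ± 0.11, adjusted p = 1.81e-09). Parental PC3 had 125, 131 and 128, then 369, 331 and 365 (1.47 ± 0.11, adjusted p = 1.6e-07). Resistant DU145 overlapped parental PC3.

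LHFPL6, of a family of tetraspan membrane proteins, had 0.607, 0.736 and 0.815, then 13.3, 13.6 and 13.5 CPM in DU145 (4.23 ± 0.18, adjusted p = 3.2e-11), while in PC3 its groups overlapped at 10.0 to 13.4. GJB2, the gap junction protein connexin 26, went from 5.09, 4.69 and 5.17 to 0, 0.108 and 0.136 CPM in DU145 and from 3.75, 4.41 and 3.62 to 1.45, 0.653 and 0.724 in PC3. The parental groups were higher in both lines, and without either of them its mean FPKM was under the minimum.

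SCEL, sciellin of the cornified envelope of squamous cells, had the largest difference between the lines of all members (7.47 ± 0.35, adjusted p = 1.09e-10). It fell from 25.1, 21.4 and 26.4 to 8.35, 8.86 and 7.88 CPM in DU145 (-1.54 ± 0.21) and rose from 0.192, 0.530 and 0.187 to 18.5, 21.1 and 16.2 in PC3 (5.93 ± 0.28, adjusted p = 9.8e-11). LMO7, a scaffold of actin and cell junctions and the 1 member above on the cytoskeleton list, fell in both lines, from 365, 357 and 358 to 129, 126 and 134 CPM in DU145 (-1.47 ± 0.04) and from 221, 210 and 208 to 175, 168 and 176 in PC3 (-0.30 ± 0.04).

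For 11 members, 7 below and 4 above, the mean FPKM fell under the minimum of 1 when 1 group was taken out. A gene chosen through the group where it is high has to differ there, so such a difference is given as values only, and the counts above include these members. When a whole line was taken out, the mean also fell under 1 for CRYL1 and RASL11A (without PC3) and for SLC46A3 and NEK3 (without DU145). SHISA2, LPAR6, TNFRSF19, ACOD1 and SLITRK6 had at most 0.271 CPM in any DU145 library and none was called there. SOX21, a transcription factor of neural progenitors, had 0, 0 and 0.0308 CPM in parental and 0.814, 0.139 and 0.273 in resistant DU145, which passed the test (adjusted p = 0.0011) on very few counts and did not with limma on log2(FPKM + 1) (adjusted p = 0.183). In PC3 it went from 3.22, 5.43 and 4.77 to 32.4, 34.8 and 35.0 CPM, and reached the minimum through resistant PC3. SHISA2 and LPAR6, a receptor for lysophosphatidic acid, reached it through parental PC3 and went from 42.4, 46.9 and 45.6 to 9.52, 5.54 and 9.53 and from 48.6, 44.8 and 51.5 to 12.4, 11.02 and 9.76 CPM in PC3, so that the parental libraries lay above the resistant ones.

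In DU145 the medians of a side kept their sign when members were divided by level, strand or overlap with other genes. Those below were 0.87, 0.74 and 0.95 in the low, middle and high tercile of mean FPKM, and 0.82 on the plus strand and 0.81 on the minus strand. They were 0.83 for members that overlap another gene and 0.81 for those that do not. Above, the corresponding values were -0.77, -0.95 and -0.74 by level, -0.86 and -0.81 by strand, and -0.73 and -0.97 by overlap. In PC3 the medians by level were 0.16, 0.29 and 0.39 below, and -0.22, 0.57 and 0.39 above, so that the low tercile above differed in sign from the others.

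By position, the DU145 medians were 0.82 at 19.6 to 29.6 Mb (38 members), 0.78 at 29.6 to 39.6 Mb (22) and 0.75 at 39.6 to 49.6 Mb (36). At 49.6 to 59.6 Mb, which spans the point of division, the median of 13 members was -0.34, with 5 higher and 5 lower. Further on the medians were -0.98 at 69.6 to 79.6 Mb (20) and -0.33 at 89.6 to 97.5 Mb (7), where 4 members fell and 1 rose. The stretches at 59.6 to 69.6 and 79.6 to 89.6 Mb held only 2 members each (medians -0.77 and -2.06). The last members of the interval fell in DU145 with the exception of MBNL2: UGGT2, a folding sensor of glycoproteins (-0.48 ± 0.08), and RAP2A, a small GTPase (-0.53 ± 0.07). RAP2A also fell in PC3 (-0.60 ± 0.07).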

How the data were processed

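The authors deposited, per sample, whole-number counts and FPKM for 38611 genes. Per the submitters' processing notes, StringTie 1.3.4d, HISAT2 2.0.4, cutadapt 1.9, edgeR and DESeq2 were used, with build hg18, but the coordinates are those of GRCh38: all 140 members overlapped the same gene and strand of a GENCODE table on that build. The sources used here do not give the counting program or strand setting, although the labels' protocols describe libraries whose second strand was marked. Members that overlap another gene are therefore uncertain (83 of 140; of those named, ALG11, ALG5, BORA, BRCA2, CDK8, DGKH, DIAPH3, DIS3, DNAJC3, GTF3A, HMGB1, INTS6, KATNAL1, KLF12, LHFPL6, LMO7, LPAR6, MBNL2, MICU2, MYCBP2, NEK3, OBI1, PARP4, PSPC1, RAP2A, RB1, RCBTB2, RFC3, RPL21, SCEL, SETDB2, SMAD9, SOX21, TPT1, TRIM13, UCHL3, UGGT2, USP12, UTP14C, WDFY2, ZMYM5).

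Counts were filtered (filterByExpr, 24128 genes, every member included), scaled by TMM and fitted with 1 mean per group over 12 libraries (8 residual degrees of freedom) by edgeR 4.0.16 in R 4.3.3, with Benjamini-Hochberg adjustment. CPM uses the scaled totals. On simulated counts, 100 of 100 genes changed by 1 log2 unit and 86 of 100 changed by 0.5 were recovered for resistant against parental DU145. The simulation gave every gene the same dispersion and changed only well-counted genes. These rates therefore do not describe genes that scatter more or have few counts. Alternatives used limma 3.58.1 and DESeq2 1.42.0. Named genes were the 5 members next to the point on each side, the first and last 3, the 3 largest called rises and falls per side and line without overlap, 12 known cancer genes, the 2 most abundant of each list and the 3 largest and smallest differences between lines. Others named were chosen after their values were seen. The members, lists and point of division were chosen with earlier results of these data known.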

Additional observations from a re-analysis of the deposited data

Results flagged for a closer look

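The change from parental to resistant cells differed between DU145 and PC3 for many members. The test of the difference (PC3 minus DU145, edgeR) called 8 members higher and 60 lower below 52 Mb, and 28 higher and 1 lower above it. The test uses the parental DU145 libraries, which stand apart on both sides. The values that follow are log2 differences of the named genes that passed this test.

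Below the point, the change in PC3 was lower than in DU145 for LHFPL6 (-4.06), SMAD9 (-2.90), RASL11A (-2.83), LATS2 (-1.77), TRIM13 (-1.32), MICU2 (-1.27), MRPL57 (-1.20), RPL21 (-1.18) and HSPH1 (-1.17). Smaller differences in this direction were found for TPT1 (-0.94), INTS6 (-0.87), GTF3A (-0.69), EBPL (-0.68), USP12 (-0.67), POMP (-0.67), CDK8 (-0.62), HMGB1 (-0.52), PSPC1 (-0.52), MPHOSPH8 (-0.37), RB1 (-0.37), NUP58 (-0.31), KPNA3 (-0.30) and PARP4 (-0.28). KPNA3 lost its call without resistant DU145 replicate 2 (adjusted p = 0.0593). RASL11A, a Ras-like GTPase, had at most 0.968 CPM in a parental DU145 library. It reached the FPKM minimum through PC3, with a mean of 0.616 without that line, so its change in DU145 starts from few counts. The change was higher in PC3 for UBL3 (1.91), CCNA1 (1.60), DGKH (1.49) and WDFY2 (0.37). GJB2 reached the FPKM minimum through the parental groups and SMAD9 through parental DU145. Their differences, 3.85 and -2.90, are therefore given as values only, and the counts include both genes.

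Above the point, the change was higher in PC3 for SCEL (7.47), PIBF1 (2.21), CKAP2 (1.78), MZT1 (1.55), SPRY2 (1.38), KLF12 (1.37), DIS3 (1.27), LMO7 (1.17), VPS36 (1.16), MYCBP2 (1.13), MBNL2 (1.01), KLF5 (0.97), DNAJC3 (0.95), ALG11 (0.86), UGGT2 (0.86) and GPR180 (0.37), and lower for SLAIN1 (-3.12). Each group had 3 libraries, so single libraries were not screened for standing apart.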

How the results depend on the processing

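Every median named here kept its sign under the alternatives run. With limma on log2(FPKM + 1) the medians below and above were 0.62 and -0.63 in DU145, 0.24 and 0.20 in PC3 and 0.34 and -0.73 between the parental lines. With log2(FPKM + 0.1) they were 0.76 and -0.74 in DU145, 0.23 above in PC3 and -0.82 above between the parental lines. A minimum mean FPKM of 2 gave -0.89 above in DU145 and 0.39 in PC3, and one of 0.5 gave -0.89 in DU145. Dividing at 46 Mb, which moves 21 members to the upper side, gave 21 members higher above in DU145 (median -0.36), 33 higher and 10 lower in PC3, 22 higher between the parental lines (median -0.23) and 12 lower in the difference between lines. Dividing at 60 Mb gave 9 lower below and a median of -0.75 above in DU145, 0.34 above in PC3, 0.46 below and -0.72 above between the parental lines, and 13 higher below in the difference. Fitting the DU145 groups alone gave -0.76 above over the 35 members tested. Same-numbered libraries did not deviate together (correlations from -0.024 to 0.021), and the fit with replicate number as a block gave -0.91 above in DU145 and changed no call of a named gene. Members that overlap no other gene, an alternative chosen after seeing the data, gave medians above of -0.97 in DU145, 0.21 in PC3 and -0.69 between the parental lines.

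Leaving out 1 library at a time gave medians from 0.81 to 0.86 below and from -0.94 to -0.76 above in DU145, from 0.25 to 0.32 above in PC3, and from 0.46 to 0.57 below and from -0.84 to -0.76 above between the parental lines. Members called lower above in the difference between lines numbered 1 to 2, the second appearing without resistant PC3 replicate 2 (NEK3, adjusted p = 0.0435). Of 174 results for the 58 named genes, 16 changed their call under some alternative, 12 of them outside limma. VPS36 in PC3 gained a call without parental PC3 replicate 2, resistant PC3 replicate 2 or resistant DU145 replicate 3, and ZMYM5 in DU145 without parental replicate 3. The difference between lines for SOX21 reversed to 2.11 and 1.74 with limma on log2(FPKM + 1) and log2(FPKM + 0.1), and edgeR gave -2.19 (adjusted p = 0.199). The cause of this reversal was not tested. SOX21 reached the FPKM minimum through resistant PC3, so no result is drawn from these values.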

Other observations

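Most genes of the interval that are not protein-coding were not called in DU145. Of 82 below 52 Mb with a mean FPKM of at least 0.1, 58 were tested, of which 1 rose (1.72%), 9 fell (15.5%) and 48 did not pass in resistant DU145 (median -0.54). Above, 20 of 29 were tested, of which 6 rose, 2 fell and 12 did not pass (median 0.62). Of 7242 genes of these types on other chromosomes 8.12% rose and 6.42% fell (median 0.06), against 18.9% and 20.7% of all genes tested. Many are pseudogenes or antisense genes that may share reads with other genes. Protein-coding genes with a mean FPKM from 0.1 to under 1 had medians of 0.36 below (23 genes, 9 higher and 3 lower) and 0.00 above (11 genes, 3 higher and 2 lower), against 0.08 over 2664 on other chromosomes, of which 18.4% were higher and 13.6% lower.

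Host transcripts of 2 microRNA clusters, chosen after their values were seen, are among these genes. DLEU2 (49956670 to 50125541), the host of miR-15a and miR-16-1, had 9.06, 9.06 and 6.80 CPM in parental and 5.70, 3.85 and 4.65 in resistant DU145 (-0.81 ± 0.18, adjusted p = 0.00189). In PC3 it rose by 1.21 ± 0.18 (adjusted p = 4.36e-05). It overlaps TRIM13 on the other strand, which rose in DU145 (1.26 ± 0.12). MIR17HG (91347820 to 91354579), the host of miR-17 and miR-20a, had 1.88, 1.94 and 2.40, then 1.57, 1.02 and 0.773 CPM in DU145 (-0.89 ± 0.30, adjusted p = 0.0293), and rose in PC3 (1.16 ± 0.30, adjusted p = 0.00457). The mature microRNAs were not measured. Their sequences, from RefSeq on GRCh38.p14 with the seed (bases 2 to 8) in capitals, are printed for 2 microRNAs of each host. The 2 of a host share a seed, and the other microRNAs of MIR17HG have other seeds.
hsa-miR-15a-5p: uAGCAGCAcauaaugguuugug
hsa-miR-16-5p: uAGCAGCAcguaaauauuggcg
hsa-miR-17-5p: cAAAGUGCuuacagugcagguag
hsa-miR-20a-5p: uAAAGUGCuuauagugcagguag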
